A study of Mus musculus with 15 samples.

Results

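The 35 genes described here carry the mammalian cell division cycle: 10 genes of G1 phase, 12 of S phase and 13 of G2 phase and mitosis (G2/M). They were taken by gene symbol from a table of 38087 gene rows, and each of the 35 symbols matched a row. A low-count filter kept 34 of them among 17405 genes tested, and E2f7, with 72 counts over all libraries, was not tested.

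RNA was sequenced from cryopreserved primary hepatocytes of CD-1 mice that had been plated on collagen at 200000 cells per well, allowed 6 h to attach in medium with dexamethasone and insulin, and overlaid with Geltrex matrix. From the next day the cells had 25% mouse serum in the medium for 24 h, followed by growth hormone or its vehicle for 2 h. The 5 groups were male hepatocytes in serum of conventionally raised male mice (3 libraries used of 3 labelled) and 4 groups of female hepatocytes. These were cells given germ-free female serum plus 8 ng per ml mouse growth hormone (3 of 3), germ-free female serum plus vehicle (2 of 3), conventional male serum plus vehicle (3 of 3) and conventional female serum plus vehicle (2 of 3). Germ-free mice carry no microbiota. The male cells were also given vehicle, and every group shared the dexamethasone, the insulin and the matrix. The cells of each sex were a separate stock, and the effect of donor sex cannot be told apart from that of the donor. The labels do not say whether replicates were separate cultures or serum pools, and the p-values below therefore measure only the spread between libraries, which may be technical.

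A cell leaves quiescence when D-type cyclins with Cdk4 or Cdk6, and then E-type cyclins with Cdk2, phosphorylate the retinoblastoma protein and free the E2F transcription factors, which switch on genes of DNA replication. Inhibitors of the Ink4 family (such as Cdkn2b) and of the Cip/Kip family (Cdkn1a and Cdkn1b) hold these kinases back. Genes of G2 and mitosis are switched on later by B-Myb and Foxm1 on the MuvB core, and in quiescent cells the DREAM complex, which contains the same core, represses them. Hepatocytes of the adult liver are mostly quiescent, return to the cycle after loss of liver mass, and in culture can pass into G1 under insulin and other growth factors without dividing much.

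Promoters were read because E2F proteins bind words such as TTGGCGC and because the MuvB core binds the cell cycle homology region (CHR), usually downstream of CCAAT boxes. RefSeq windows of 300 bases (250 before to 50 after the start site, GRCm38.p6) were at hand for 28 of the 35 members, in 30 windows. They were searched on both strands for E2F words (TTGGCGC, or TTCGCGC, or TTCCCGC, or TTGCCGC), for CHR words (TTTGAA, or the variant TTCGAA), and for the CCAAT box. E2F words and CCAAT boxes can share letters, and words were counted anywhere in the window and in any order. An E2F word was present in 9 of 12 windows of S genes, 3 of 10 of G2/M genes and 1 of 8 of G1 genes, against 9.57% of all 32851 windows. A CHR word together with a CCAAT box was present in 8 of 10 windows of G2/M genes, 3 of 12 of S genes and 0 of 8 of G1 genes, against 7.52% of all windows. Ccnd1, Ccnd2, Ccne2, Ccna2, Mcm4, Aurkb and Foxm1 had no window in the table. Of the 6 stretches that follow, Top2a and Cdc20 show a CHR word with CCAAT boxes in genes that were lower in male cells, Mki67 shows the CHR words of another such gene, whose CCAAT boxes lie outside the stretch, Cdk1 shows both words in a gene that did not pass, and Mcm2 and Mcm6 show partners of the same helicase, of which Mcm2 alone was lower. Each runs from 120 bases before the start site to the last base before it, and capitals mark the words searched for on either strand.
Mki67, chr7:135716380-135716499, minus strand: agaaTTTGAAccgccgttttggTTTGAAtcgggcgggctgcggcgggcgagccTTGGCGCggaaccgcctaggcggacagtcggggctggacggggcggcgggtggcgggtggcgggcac
Top2a, chr11:99024190-99024309, minus strand: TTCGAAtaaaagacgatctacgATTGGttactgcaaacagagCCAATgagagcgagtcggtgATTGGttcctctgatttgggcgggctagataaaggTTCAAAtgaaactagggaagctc
Cdc20, chr4:118437344-118437463, minus strand: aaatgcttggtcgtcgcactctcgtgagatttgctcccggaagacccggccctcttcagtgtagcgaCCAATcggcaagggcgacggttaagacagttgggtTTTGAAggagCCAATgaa
Cdk1, chr10:69352913-69353032, minus strand: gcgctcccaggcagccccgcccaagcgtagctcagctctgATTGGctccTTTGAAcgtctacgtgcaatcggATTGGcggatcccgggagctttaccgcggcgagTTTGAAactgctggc
Mcm2, chr6:88898781-88898900, minus strand: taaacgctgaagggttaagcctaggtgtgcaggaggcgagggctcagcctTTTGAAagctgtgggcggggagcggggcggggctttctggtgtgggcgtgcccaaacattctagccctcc
Mcm6, chr1:128359706-128359825, minus strand: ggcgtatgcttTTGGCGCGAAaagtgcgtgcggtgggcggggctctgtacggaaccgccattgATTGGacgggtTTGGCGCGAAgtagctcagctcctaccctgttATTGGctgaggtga

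Over the whole window, Mki67 held 2 CHR words, 1 E2F word and 3 CCAAT boxes, and Top2a held 4 CHR words and 6 CCAAT boxes. Cdc20 held 1 CHR word. Cdk1 held 2 CHR words and 2 E2F words, Mcm2 held 1 CHR word and no E2F word, and Mcm6 held 5 E2F words, of which 2 pairs overlap on opposite strands. A matching word is a description of the sequence, and factor binding was not measured.

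Library totals ran from 34097400 to 48742274 counts, so that the lowest member tested, E2f8, still had 251 counts in all. Kdm5d, a Y-linked gene, had 1302 to 1506 counts in each male library and 0 in each female library. Within groups no library was a copy of another: the chi-square per degree of freedom between replicates was 5.46 to 53.4. Replicate 1 of female cells in male serum stood apart in several members, and replicate 2 in conventional female serum and replicate 1 of the growth hormone group held the most counts of Xist. Results that rest on these libraries are given with and without them. The hepatocyte markers were abundant in every group, with a summed level of 20242 to 21374 counts scaled to library size (CPM) in male cells and 7119 to 8615 CPM over the female groups. Markers of other cells were lower but present: endothelial markers summed to 11.1 to 47.1 CPM and leukocyte markers to 0.750 to 1.78 CPM. Of the 4 leukocyte markers, Nkg7 had 0 counts in 12 of 13 libraries, while Ptprc, Cd3e and Cd79a had counts in every library.

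Levels of the members were compared with each other per kilobase of exon (RPKM). In female cells in conventional male serum the highest was Cdkn1a, the p21 inhibitor, at 57.7 RPKM, followed by Cdk4 at 38.7 RPKM. Mcm6 at 18.0 and Pcna at 17.4 RPKM were the highest of the S genes. All 13 G2/M genes lay between 0.143 RPKM for Foxm1 and 1.84 RPKM for Aurka. The lowest S gene was E2f7, at 0.0225 RPKM.

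**Figure D1:**
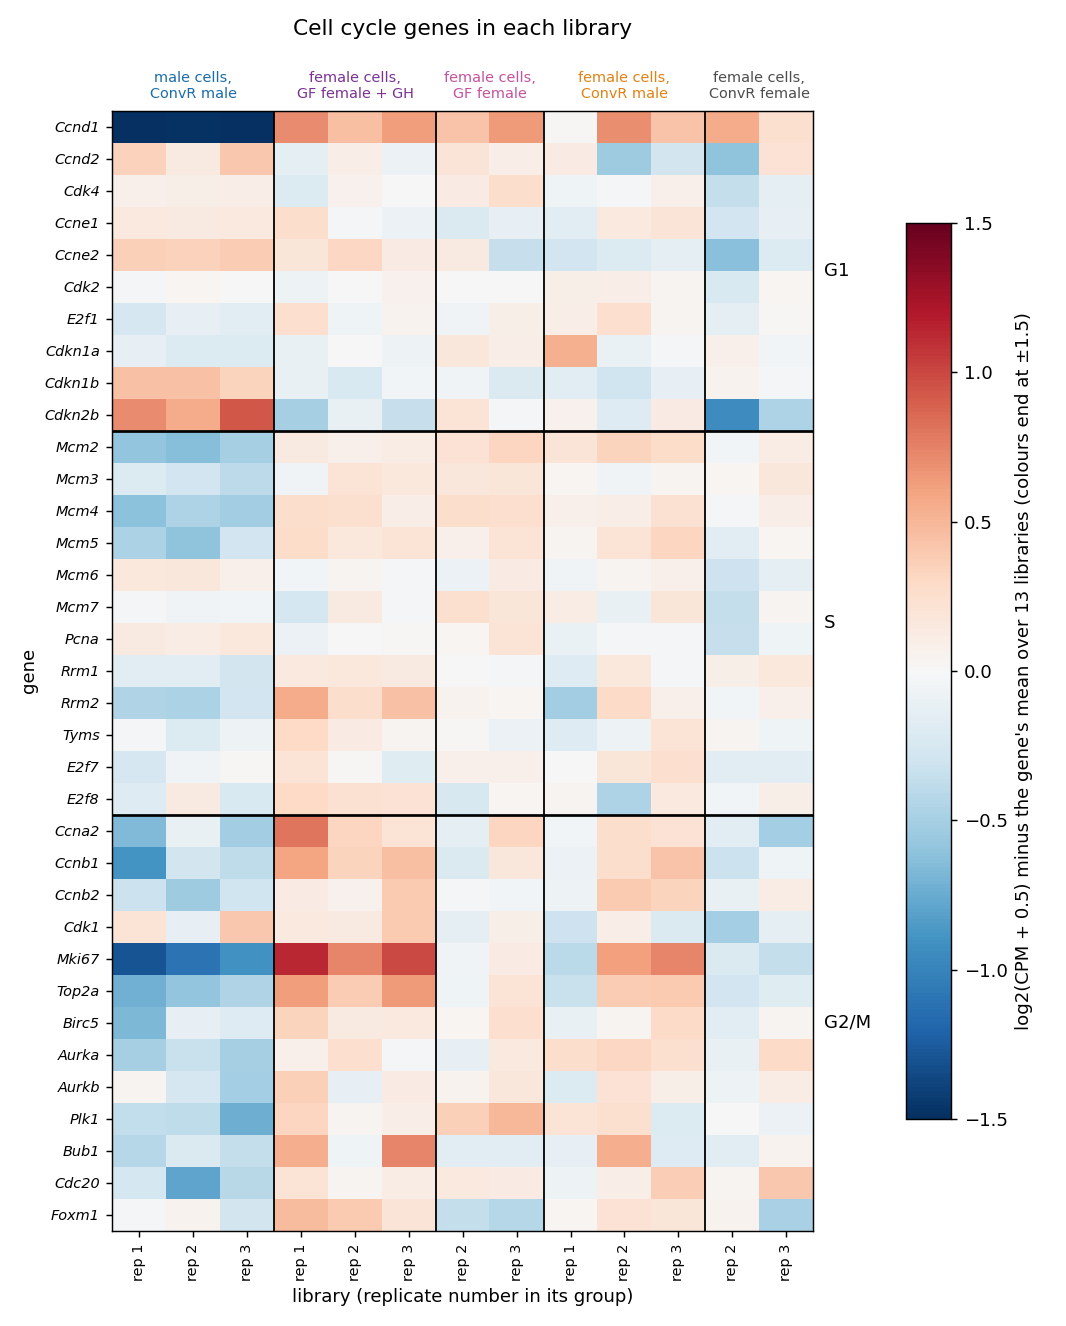
Level of the 35 cell cycle genes in the 13 libraries, as log2(CPM + 0.5) minus the mean of the gene over all libraries (colour), with genes in rows by phase and libraries in columns by group. Ccnd1, Mki67 and Mcm2 are lowest in all 3 libraries of male cells, and Mki67 reaches 10.4 CPM with growth hormone.

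The largest contrast among the members was between male and female hepatocytes in the same conventional male serum. In male cells 14 of 34 members were lower and 3 were higher, while 17 did not pass the threshold (edgeR quasi-likelihood F test, two-sided, Benjamini-Hochberg adjusted p under 0.05 over all genes). Many genes differed here: 36.7% of all tested genes passed, 19% lower and 17.6% higher in male cells. At an unadjusted p under 0.05 there were 23 members, against 45.4% of all genes. Libraries of the groups did not overlap in 18 lower and 5 higher members, against 24.3% and 23.2% of all genes. The members' share of lower calls was above that background and their share of higher calls below it. The median log2 change was -0.35 over the members and -0.02 over all genes tested. By phase, 8 of 13 G2/M genes, 4 of 11 S genes and 2 of 10 G1 genes were lower, and the 3 higher genes were all G1 genes. In bulk RNA, fewer cycling cells and less of these transcripts per cell cannot be told apart.

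**Figure D2:**
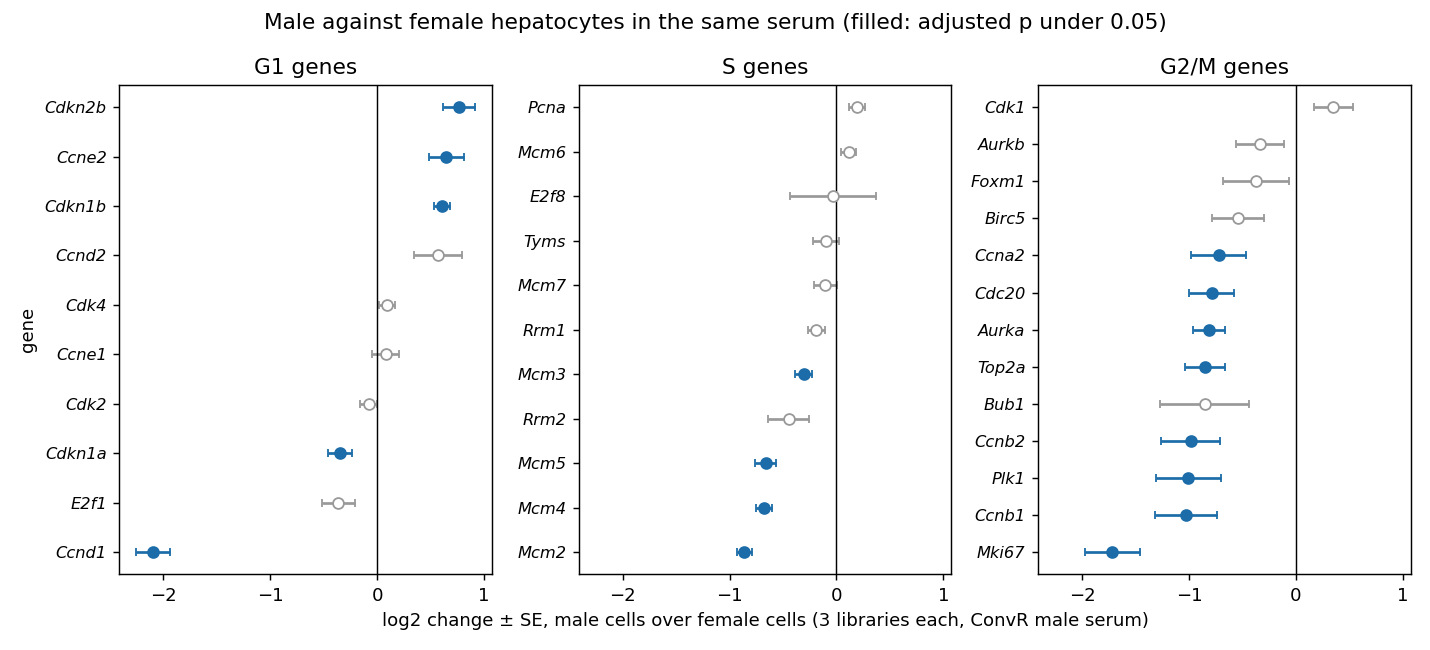
Log2 change with its standard error of each tested member, male over female hepatocytes in conventional male serum (3 libraries each), by phase. Filled points passed an adjusted p under 0.05, and Ccnd1 at -2.10 and Mki67 at -1.72 lie farthest below 0.

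Ccnd1, cyclin D1, which starts the passage through G1 with Cdk4, had 4.79, 5.55 and 4.96 CPM in male cells, against 16.6, 26.8 and 22.1 CPM in female cells in the same serum. The groups did not overlap, and male cells lay below each of the 10 female libraries of any serum. The level was 4.28-fold lower in male cells (log2 change -2.10 ± 0.155, SE; adjusted p = 3.03e-08). Ccnd1 overlaps Oraov1 on the opposite strand, over 23.4% of the exon bases, and the strand setting of the counting is not given in the sources used here. Oraov1 itself averaged 17.5 ± 1.33 CPM in male cells and 20.3 ± 1.04 CPM in female cells (SD, n = 3 each). Its log2 change of -0.21 also passed the threshold (adjusted p = 0.0470). The other D-type cyclin measured, Ccnd2, had 4.67, 3.96 and 4.90 CPM in male cells, against 3.94, 2.31 and 2.86 CPM in female cells. Its log2 change of 0.57 missed the threshold (adjusted p = 0.0564), and DESeq2 placed it inside (0.0336).

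Neither Cdk4 nor Cdk2, the kinases among the G1 members, passed the threshold. Cdk4 had 133, 135 and 136 CPM in male cells, against 121, 123 and 134 CPM in female cells, with overlapping groups and a log2 change of 0.09 (95% interval -0.07 to 0.26, adjusted p = 0.367). Tspan31, which overlaps Cdk4 on the opposite strand, differed by -0.23 and passed (adjusted p = 0.0241). Cdk2, the partner of E-type cyclins, differed by -0.08 (interval -0.24 to 0.08) and Ccne1, cyclin E1, by 0.08 (interval -0.18 to 0.34). Ccne2, cyclin E2, had 4.82, 4.75 and 4.90 CPM in male cells, against 2.89, 3.09 and 3.24 CPM in female cells. It was 1.57-fold higher in male cells without overlap (log2 change 0.65 ± 0.161, adjusted p = 0.00465). Ints8, which overlaps 17.4% of its exon bases on the opposite strand, differed by -0.06. E2f1, an activating E2F, differed by -0.36 and did not pass (adjusted p = 0.0751).

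The 3 inhibitors of G1 kinases did not move together. Cdkn1b, or p27, had 48.5, 48.3 and 44.9 CPM in male cells, against 31.7, 28.8 and 32.6 CPM in female cells, and all 10 female libraries lay at or below 36.8 CPM. It was 1.52-fold higher in male cells (log2 change 0.61 ± 0.0728, adjusted p = 7.27e-06). Cdkn2b, or p15, had 13.4, 11.9 and 15.7 CPM in male cells, against 8.41, 6.95 and 8.73 CPM in female cells. The groups did not overlap, and p15 was 1.70-fold higher in male cells (log2 change 0.77 ± 0.149, adjusted p = 0.000758). Cdkn1a, or p21, had 168, 158 and 158 CPM in male cells, against 264, 170 and 181 CPM in female cells. It was 1.27-fold lower in male cells (log2 change -0.35 ± 0.116, adjusted p = 0.0279), and without replicate 1 of the female cells, at 264 CPM, the log2 change was -0.12 (adjusted p = 0.171). The call for Cdkn1a was also lost without any single male library (adjusted p = 0.0566, 0.0941 and 0.0940).

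**Figure D3:**
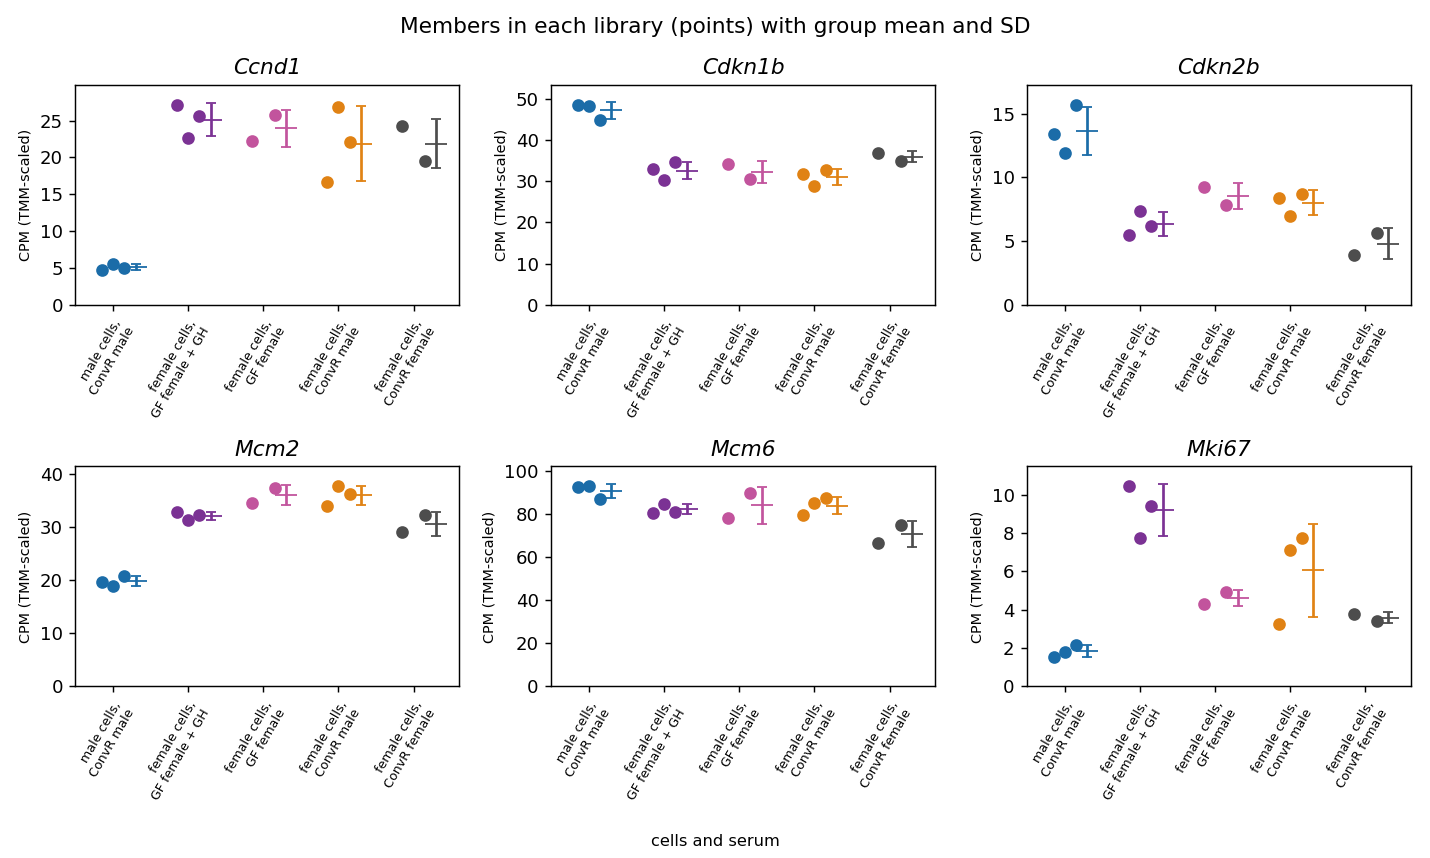
CPM scaled by TMM in each library (points) with group mean and SD (bars) for 6 members, with the groups along the x axis. Male cells, at the left of each panel, lie below all female libraries for Ccnd1, Mcm2 and Mki67 and above them for Cdkn1b and Cdkn2b, while their Mcm6 levels of 87.0 to 92.7 CPM overlap those of female cells.

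Among the S genes the subunits of the replicative MCM helicase, which is loaded on DNA as one complex of Mcm2 to Mcm7, differed unequally. Mcm2 had 19.6, 18.9 and 20.9 CPM in male cells, against 34, 37.6 and 36.3 CPM in female cells. It was 1.82-fold lower in male cells without overlap (log2 change -0.86 ± 0.0693, adjusted p = 8.47e-08). Mcm4, with 17.3, 19.3 and 18.4 CPM in male cells against 28.2, 28.6 and 31.3 CPM in female cells, was 1.60-fold lower (-0.68 ± 0.0737, adjusted p = 2.65e-06). Mcm5, with 10.6, 9.61 and 12.1 CPM in male cells against 15.2, 17.2 and 18.7 CPM in female cells, was 1.58-fold lower (-0.66 ± 0.103, adjusted p = 9.4e-05). In both genes the male libraries all lay below the female ones. Mcm3, with 24.4, 22.9 and 21.4 CPM in male cells against 28.8, 27.1 and 29.0 CPM in female cells, was 1.24-fold lower (-0.31 ± 0.0792, adjusted p = 0.00622). Mcm6 had 92.3, 92.7 and 87.0 CPM in male cells, against 79.4, 84.9 and 87.2 CPM in female cells, and these groups overlapped. Its log2 change was 0.11 (interval -0.03 to 0.26, adjusted p = 0.214), and that of Mcm7 was -0.10 (interval -0.33 to 0.12, adjusted p = 0.482). Mcm2, Mcm3, Mcm4 and Mcm5 passed and Mcm6 and Mcm7 did not under TMM, RLE factors, library sizes alone and DESeq2.

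The remaining S genes did not pass in this comparison. Pcna, the sliding clamp of the replicative polymerases, had 47.5, 46.7 and 48.4 CPM in male cells, against 40.3, 42.4 and 42.3 CPM in female cells. The groups did not overlap, yet its log2 change of 0.19 had an adjusted p = 0.0508, and RLE factors put it inside the threshold (0.0433). Rrm1 and Rrm2, the subunits of ribonucleotide reductase, differed by -0.19 and -0.45 (adjusted p = 0.0817 and 0.0744). Both passed when counts were scaled by library size alone (adjusted p = 0.0199 and 0.0330), a scaling that moved the median of all genes to -0.11 in this comparison. Tyms, thymidylate synthase, differed by -0.10 (interval -0.35 to 0.16). E2f8, an atypical E2F that represses other E2F targets, differed by -0.04 at 0.195 to 0.677 CPM over all libraries, with an interval from -0.89 to 0.82. Gm2788, which overlaps 11.2% of the exon bases of E2f8 on the opposite strand, was higher in male cells (1.93, adjusted p = 0.0139). It averaged 0.445 ± 0.124 CPM in male cells and 0.113 ± 0.0768 CPM in female cells (SD, n = 3 each). E2f7, the relative of E2f8, had 0.0307, 0.110 and 0.144 CPM in male cells, against 0.134, 0.222 and 0.253 CPM in female cells, with overlapping groups.

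The G2/M genes were the most one-sided phase. Of 13, 12 had a log2 change below 0 and the median was -0.81. Their summed level was 19.7 to 21.4 CPM in male cells, against 26.2 to 37.9 CPM in female cells in the same serum. Mki67, which codes for the proliferation marker Ki-67 that coats mitotic chromosomes, had 1.54, 1.81 and 2.16 CPM in male cells, against 3.27, 7.12 and 7.77 CPM in female cells. It was 3.29-fold lower in male cells (log2 change -1.72 ± 0.259, adjusted p = 7.34e-05). Top2a, the topoisomerase that untangles sister chromatids, had 3.01, 3.35 and 3.75 CPM in male cells, against 4.10, 7.06 and 7.08 CPM in female cells (-0.85 ± 0.185, adjusted p = 0.00179). The groups did not overlap in either gene, and in both replicate 1 was the lowest of the female libraries. Without that library the log2 change of Mki67 was -2.01 and that of Top2a -1.07.

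The mitotic cyclins, which activate Cdk1, were lower in male cells at low levels. Ccna2, cyclin A2, had 1.08, 1.81 and 1.24 CPM in male cells, against 1.93, 2.5 and 2.4 CPM in female cells (-0.72 ± 0.257, adjusted p = 0.0378). Ccnb1, cyclin B1, had 0.430, 0.934 and 0.836 CPM in male cells, against 1.12, 1.59 and 1.82 CPM in female cells (-1.03 ± 0.292, adjusted p = 0.0110). Ccnb2, cyclin B2, had 0.645, 0.494 and 0.663 CPM in male cells, against 0.857, 1.39 and 1.32 CPM in female cells (-0.98 ± 0.276, adjusted p = 0.0104). Exosc9, which overlaps 12.5% of the exon bases of Ccna2 on the opposite strand, differed by 0.06. None of these groups overlapped, but single libraries decided the calls. The call for Ccna2 was kept in 2 of 6 fits that left out a library, and lost without male replicate 1 (adjusted p = 0.149), male replicate 3 (0.122), female replicate 2 (0.0972) or female replicate 3 (0.0874). Ccnb1 lost its call without male replicate 1 (0.0579), and Ccnb2 without male replicate 2 (0.0532). For their kinase Cdk1 the change was above 0, with 4.43, 3.41 and 5.13 CPM in male cells, against 2.95, 4.06 and 3.16 CPM in female cells. These groups overlapped, and the log2 change was 0.35 (interval -0.04 to 0.74, adjusted p = 0.147).

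The mitotic kinases and their partners were mostly lower as well. Aurka, the kinase of the spindle poles, had 2.52, 2.88 and 2.54 CPM in male cells, against 4.63, 4.81 and 4.53 CPM in female cells (1.76-fold lower, -0.81 ± 0.154, adjusted p = 0.000594). Its groups were well apart. Plk1, Polo-like kinase 1, had 0.553, 0.549 and 0.317 CPM in male cells, against 1.07, 1.11 and 0.683 CPM in female cells (-1.01 ± 0.302, adjusted p = 0.0155). Cdc20, which activates the anaphase-promoting complex, had 1.72, 1.04 and 1.5 CPM in male cells, against 2.04, 2.36 and 2.93 CPM in female cells (-0.79 ± 0.213, adjusted p = 0.00803). Neither overlapped. The call for Plk1 was kept in 3 of 6 fits that left out a library, and lost without male replicate 3 (adjusted p = 0.0796), female replicate 1 (0.0514) or female replicate 2 (0.0521), and Cdc20 lost its call without male replicate 2 (0.0532). Birc5, or survivin, differed by -0.54 (adjusted p = 0.0955), Bub1, a checkpoint kinase, by -0.85 (0.123), Aurkb, the kinase of the chromosomal passenger complex, by -0.34 (0.259), and Foxm1, an activator of G2/M genes, by -0.37 (0.375). None of these passed.

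Other cell cycle genes, listed by the same phases, were more often called lower than higher. Of 118 tested, 46 were lower and 7 higher in male cells, against 19% and 17.6% of all tested genes, with a median of -0.32. Of the 53 other G2/M genes 19 were lower and 5 higher, and the ranges of their summed level overlapped, at 390 to 433 CPM in male cells, against 385 to 433 CPM in female cells. The 5 higher ones were Ncapg (0.82), Ncapd2 (0.80) and Smc4 (0.22), subunits of condensin, and Mad2l1 (0.38) and Bub3 (0.16) of the spindle checkpoint, named after their values were seen. Ncapd2 averaged 51.0 ± 4.88 CPM in male cells and 29.4 ± 1.20 CPM in female cells (SD, n = 3 each). The higher genes of the other phases were Ccnc (0.36), cyclin C, and Gmnn (0.43), geminin, an inhibitor of replication licensing. In G1 the largest calls were Cables1 (-1.27), an adaptor of cyclin-dependent kinases, E2f2 (-0.93) and Cdk6 (-0.71), the partner of D-type cyclins besides Cdk4. In S phase they were Lig1, which joins Okazaki fragments, at 11.5 ± 0.986 CPM in male cells and 31.8 ± 3.27 CPM in female cells (SD, n = 3 each; -1.46), Cdc6 (-1.31) and Cdc45 (2.01-fold lower), which load and start the helicase. In G2/M they were Hmmr (-1.93), Ube2c (-1.79), the ubiquitin-conjugating enzyme of the anaphase-promoting complex, and Cenpf (-1.70), a kinetochore protein, each of low level. On the opposite strand, Cables1 shares 34.2% of its exon bases with AC100751.1, Ube2c 22.8% with Tnnc2 and Ncapg 13.4% with Lcorl. Of 6 genes of the MuvB core and its partners 1 passed, against 36.7% of all tested genes. It was Mybl2, which codes for B-Myb, at 0.770 ± 0.200 CPM in male cells and 1.54 ± 0.153 CPM in female cells (-0.99 ± 0.262, adjusted p = 0.00711).

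In the RefSeq windows, a CHR word with a CCAAT box was present in 7 of the 12 windows of members lower in male cells and in 4 of the 15 windows of tested members that did not pass. An E2F word was present in 4 of 12 and 8 of 15. Of the 14 lower members 8 belong to G2/M. Cdkn1a and Mcm7 enter these counts with a window for each of their start sites. The CHR words of Aurka and Plk1 lie after the start site.

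Markers of cell types also differed in this comparison, in which 36.7% of all tested genes passed, 17.6% higher and 19% lower in male cells. Of 8 hepatocyte markers 7 were higher in male cells and Hnf4a was lower. Their summed level was 20242 to 21374 CPM in male cells, against 7906 to 8159 CPM in female cells. Endothelial markers were higher in 5 of 6, and summed to 44.8 to 47.1 CPM in male cells, against 13.5 to 16.3 CPM in female cells. Kupffer cell markers summed to 147 to 166 CPM in male cells, against 76.5 to 96.7 CPM in female cells. Most of that sum was Cd68, at 154 ± 10.7 CPM in male and 79.0 ± 11.5 CPM in female cells (SD, n = 3 each). Cd68 was the single call of 4 tested, and the log2 change was above 0 in 1 and below 0 in 3. Stellate and fibroblast markers summed to 27.1 to 29.8 CPM in male cells, against 15.2 to 21.9 CPM in female cells, with 3 of 8 higher and Col1a1 lower. Bile duct markers summed to 27.8 to 34 CPM in male cells, against 34 to 41.1 CPM in female cells, with Epcam higher and Sox9 lower, and leukocyte markers had no call of 2 tested, at 0.907 to 0.983 CPM in male cells, against 0.750 to 1.21 CPM in female cells. Their part in the differences of the cell cycle genes was not tested.

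Between the sera, few members differed. The 3 serum comparisons and the hormone comparison share groups with each other and with the comparison of the cells, so their values are set side by side and not counted as independent. In germ-free female serum 3 of 34 members were higher and 0 lower than in conventional female serum, against 2.86% of all tested genes higher and 3.54% lower (6.41% in all). In conventional male serum 1 was higher and 0 lower than in conventional female serum, against 3.95% higher and 4.85% lower (8.8% in all). Between germ-free female serum and conventional male serum, edgeR and DESeq2 each called 0 of 34 members, with 3 at an unadjusted p under 0.05, against 0.448% of all genes called and 10.5% at that unadjusted p. At an unadjusted p under 0.05 there were 8 members for germ-free over conventional female serum (21.1% of all genes) and 9 for male over conventional female serum (24.3%). Without overlap, 13 were higher and 2 lower in germ-free serum (23.7% and 26.2% of all genes), and 8 were higher and 1 lower in male serum (16.4% and 18.6%). The median log2 change of the members was 0.17, 0.21 and -0.00 in these 3 comparisons as named and that of all genes between -0.01 and 0.00.

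The members that passed between sera were Cdk4, Cdkn2b and Pcna. Cdkn2b had 9.25 and 7.83 CPM in germ-free female serum and 8.41, 6.95 and 8.73 CPM in conventional male serum, against 3.92 and 5.65 CPM in conventional female serum. Neither of the first groups overlapped with conventional female serum. The log2 change was 0.84 ± 0.190 for germ-free serum (adjusted p = 0.0150) and 0.75 ± 0.176 for male serum (adjusted p = 0.0146). Cdk4 had 138 and 151 CPM in germ-free female serum, against 98.2 and 114 CPM in conventional female serum, a 1.36-fold higher level without overlap (log2 change 0.45 ± 0.0951, adjusted p = 0.0104). Tspan31, which overlaps 19.7% of the exon bases of Cdk4 on the opposite strand, differed by -0.11 (adjusted p = 0.527). Male serum gave 121, 123 and 134 CPM of Cdk4, a log2 change of 0.25 over conventional female serum that did not pass (adjusted p = 0.0948). Pcna had 44.2 and 49.7 CPM in germ-free female serum, against 34 and 41.4 CPM in conventional female serum (0.32 ± 0.0891, adjusted p = 0.0443).

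Several libraries decided these calls. Without replicate 2 of conventional female serum, the library with the lower value in all 3 genes and rich in Xist, no member passed in either comparison with conventional female serum. For germ-free serum the log2 changes were then 0.59 for Cdkn2b (adjusted p = 0.214), 0.34 for Cdk4 (0.163) and 0.18 for Pcna (0.454), and for male serum 0.50 for Cdkn2b (0.188). Without both libraries richest in Xist, 0 members passed in either comparison. The count for germ-free serum was also 1 without either germ-free library.

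Most other members differed little between the sera. Ccnd1 had 22.2 and 25.8 CPM in germ-free female serum, 16.6, 26.8 and 22.1 CPM in male serum, and 24.2 and 19.5 CPM in conventional female serum, and all these groups overlapped. Its log2 change was 0.13 for germ-free over conventional female serum (interval -0.22 to 0.48) and -0.00 for male over female serum (interval -0.33 to 0.32), with a sign that turned under other settings. Cdkn1a had 205 and 195 CPM in germ-free female serum, against 192 and 177 CPM in conventional female serum (0.12, interval -0.18 to 0.42). Mcm2 and Mcm6 had log2 changes of 0.23 and 0.25 for germ-free serum, and of 0.23 and 0.25 for male serum, over conventional female serum. These had adjusted p values of 0.112 and 0.0973 for germ-free serum and 0.0664 and 0.0597 for male serum, and DESeq2 put both inside the threshold for male serum (0.0477 and 0.0279). Of the G2/M genes none passed, with summed levels of 28.0 to 33.2 CPM in germ-free female serum, 26.2 to 37.9 CPM in male serum and 24.9 to 28.1 CPM in conventional female serum.

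The call for Mki67 in male serum varied with the libraries and the method. It had 3.27, 7.12 and 7.77 CPM in male serum, against 3.78 and 3.39 CPM in conventional female serum, and the groups overlapped through replicate 1. The log2 change was 0.75 ± 0.263 (adjusted p = 0.0899) with that library and 1.05 (adjusted p = 0.00182) without it. With all libraries kept, the adjusted p was 0.0341 in DESeq2, 0.000545 without the low-count filter and 0.235 in a fit of these groups alone. In replicate 1 Cdkn1a was the highest of all 13 libraries, at 264 CPM, while Rrm2 was the lowest of the female libraries, at 2.71 CPM.

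Among the other cell cycle genes, 5 of 118 passed for germ-free and 6 of 118 for male over conventional female serum, shares near those of all genes (6.41% and 8.8%). For germ-free over conventional female serum 3 of 118 were higher, namely Kif20a (0.79), a kinesin of cytokinesis, Cks1b (0.68), a subunit of cyclin-dependent kinases, and Lmnb1 (0.67), lamin B1, while Dut (-0.55) and Lig1 (-0.38), both of DNA synthesis, were lower. For male over conventional female serum 5 were higher and 1 lower. These were Kif20a (0.74), Prc1 (0.63), which bundles the central spindle, Cks1b (0.63), Cables1 (0.52) and Myc (0.45), and Dut was lower (-0.53). On the opposite strand, Kif20a shares 29.3% of its exon bases with Cdc23, Cables1 34.2% with AC100751.1 and Prc1 11.1% with Rccd1. Without replicate 2 of conventional female serum, 2 genes passed for germ-free serum and 1 for male serum. Between germ-free and male serum 0 of 118 passed in edgeR and in DESeq2, with 6 at an unadjusted p under 0.05, against 10.5% of all genes.

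Targets of p53, the tumour suppressor that induces Cdkn1a and arrests the cycle, gave more calls between sera than the cycle genes themselves. Their list also holds Trp53, the gene of p53 itself. It leaves out Cdkn1a, which is counted among the members and did not pass between the sera. Of 20 targets 9 were lower and 2 higher in germ-free than in conventional female serum, against 3.54% and 2.86% of all tested genes. In male serum 9 were lower and 1 higher than in conventional female serum, against 4.85% and 3.95%. The median log2 change of the targets was -0.27 in each comparison. Fas, a death receptor, had 11.4 and 11.8 CPM in germ-free female serum and 11.5, 11.3 and 11.7 CPM in male serum, against 19.0 and 19.3 CPM in conventional female serum. The gap was wide beside the spread: the log2 change was -0.72 ± 0.0958 for germ-free serum (adjusted p = 0.000542) and -0.73 ± 0.0861 for male serum (adjusted p = 8.1e-05). Btg2, an inhibitor of proliferation, had 229, 216 and 190 CPM in male serum, against 314 and 352 CPM in conventional female serum (-0.65 ± 0.0926, adjusted p = 0.000394). Sesn1, a sestrin, averaged 6.04 ± 0.500 CPM in germ-free female serum and 9.27 ± 0.415 CPM in conventional female serum (SD, n = 2 each; -0.62).

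Gadd45a, a growth arrest gene of the same list, went the other way. It had 190 and 174 CPM in germ-free female serum and 174, 135 and 176 CPM in male serum, against 68.2 and 108 CPM in conventional female serum. The log2 change was 1.05 ± 0.231 for germ-free serum (adjusted p = 0.0130) and 0.88 ± 0.215 for male serum (adjusted p = 0.0177), without overlap of the groups. Gadd45a shares 19.1% of its exon bases with E230016M11Rik on the opposite strand. Leaving out single libraries left 4 to 9 calls among the targets for germ-free serum and 6 to 11 for male serum. The lowest counts were 4 without germ-free replicate 3 and 6 without either germ-free replicate 2 or conventional female replicate 2 for germ-free serum, and 6 without conventional female replicate 3 for male serum. In each of those for germ-free serum no target was called higher. In male over female cells 8 of 20 targets were lower and 2 higher, among them Gadd45a (-0.82), Sesn2 (-0.79) and Phlda3 (-0.57), against the 19% lower and 17.6% higher over all genes. Of 8 hepatocyte markers 5 were lower in germ-free than in conventional female serum, against 3.54% of all tested genes. Among them Tat differed by a log2 change of -1.35, Apoa1 by -0.97 and Asgr1 by -0.61. For male over conventional female serum 3 hepatocyte markers were lower and 1 higher, against 4.85% and 3.95% of all tested genes. Cd68 (-0.38) and Spp1 (-0.70) were also lower there and Sox9 (0.79) higher. No leukocyte or endothelial marker passed in either comparison. The summed level of the hepatocyte markers was 7148 to 7943 CPM in germ-free female serum, 7906 to 8159 CPM in male serum and 7119 to 7403 CPM in conventional female serum. A sum follows its most abundant genes. The sum in male serum lay above that in conventional female serum without overlap, although 5 of 8 markers had log2 changes below 0 (median -0.36). Stellate and fibroblast markers summed to 31.0 to 34.4 CPM in germ-free female serum, 15.2 to 21.9 CPM in male serum and 21.6 to 28.9 CPM in conventional female serum. Kupffer cell markers summed to 124 to 133 CPM in germ-free female serum, 76.5 to 96.7 CPM in male serum and 103 to 112 CPM in conventional female serum. Most of each sum was Cd68, with means of 124, 79.0 and 103 CPM in that order. Cd68 was higher in germ-free than in male serum (0.65 ± 0.107, adjusted p = 0.0165), against 0.184% of all tested genes. Of the 4 markers tested there, 2 had log2 changes above 0 and 2 below. The part of these shifts in the values above was not tested.

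**Figure D4:**
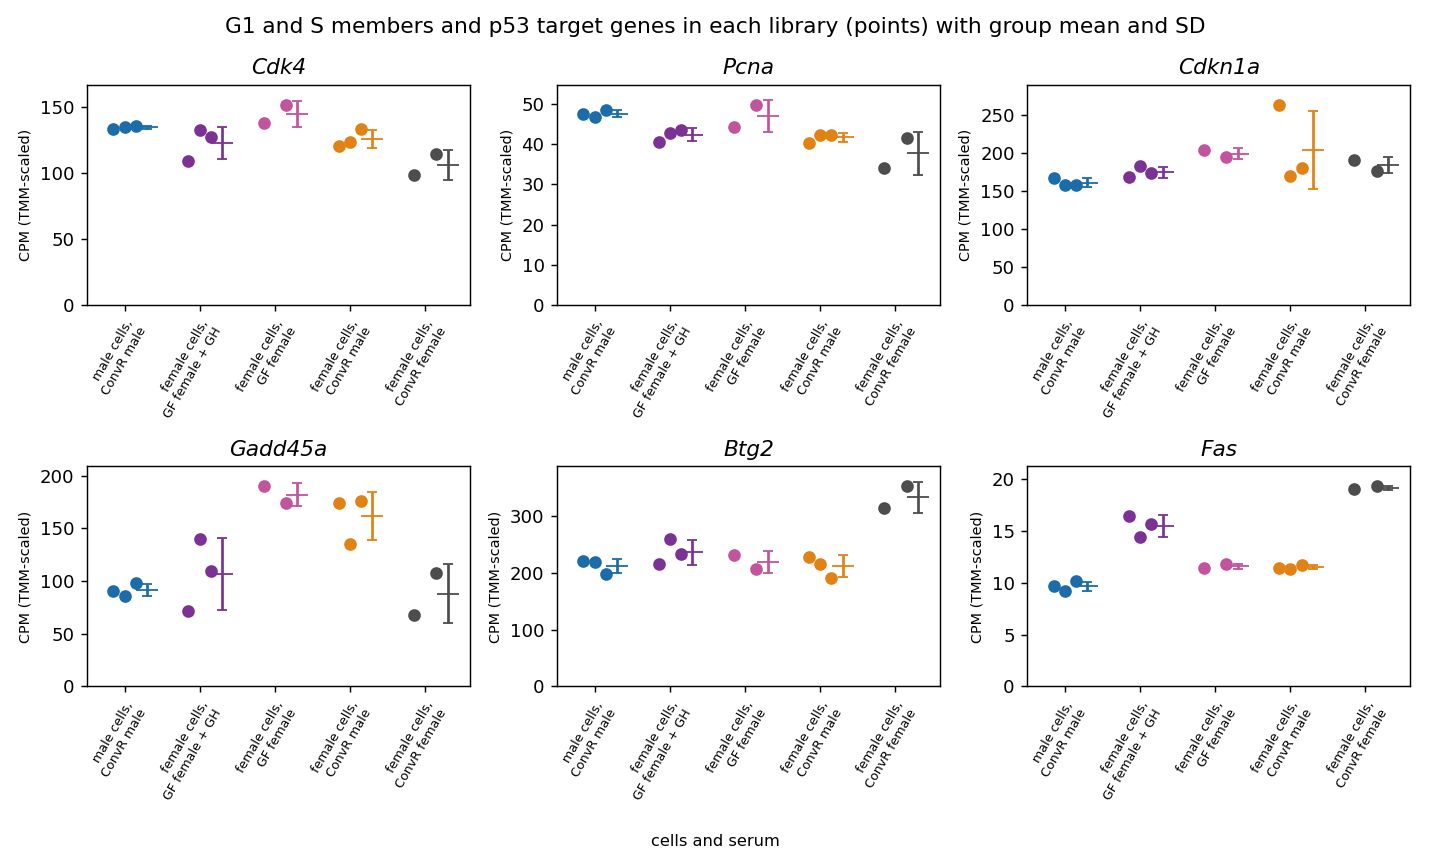
CPM scaled by TMM in each library (points) with group mean and SD (bars) for Cdk4, Pcna and Cdkn1a and for 3 targets of p53, with the groups along the x axis. Fas lies at 19.0 and 19.3 CPM in conventional female serum, above all other libraries, and Gadd45a is lower there than in germ-free or male serum.

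Growth hormone for 2 h on top of germ-free serum called 0 of 34 members in edgeR, against 0.586% of all tested genes, of which 0.511% were higher and 0.0747% lower. With DESeq2 1 member passed, and 10 members had an unadjusted p under 0.05 in edgeR, against 12.8% of all genes. Mki67 had 10.4, 7.77 and 9.39 CPM with growth hormone, against 4.30 and 4.90 CPM without it. Every library with the hormone lay above those without, and the level was 2.00-fold higher (log2 change 1.00 ± 0.257, interval 0.46 to 1.55), but the adjusted p was 0.118. It was 0.0114 in DESeq2, 0.00814 in a fit of these groups alone and 2e-07 without the low-count filter, and between 0.0698 and 0.440 when single libraries were left out.

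Several other G2/M members were also higher with the hormone in these libraries without passing. Foxm1 had 1.16, 1.07 and 0.876 CPM with growth hormone, against 0.433 and 0.390 CPM without it (1.32 ± 0.357, adjusted p = 0.135). Top2a had 8.44, 7.06 and 8.55 CPM with growth hormone, against 5.02 and 6.19 CPM without it (0.52 ± 0.194, adjusted p = 0.284). Both were called without the low-count filter (adjusted p = 0.0411 and 0.0393). Bub1 differed by 1.03 (interval 0.11 to 1.95, adjusted p = 0.335) and Ccnb1 by 0.64 (interval 0.01 to 1.28, adjusted p = 0.386). In 7 of 13 G2/M members all libraries with the hormone lay above those without, against 16.6% of all tested genes. In 1 member they lay below, against 15.3%. The summed level of the G2/M members was 37.1 to 44.9 CPM with growth hormone, against 28.0 to 33.2 CPM without it. Of 53 G2/M genes outside the members, 10 lay above and 4 below without overlap, and their median log2 change was 0.07. Their summed level was 418 to 438 CPM with growth hormone, against 416 to 435 CPM without it.

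The G1 and S genes gave values on both sides of 0 with the hormone. Ccnd1 had 27.1, 22.7 and 25.6 CPM with growth hormone, against 22.2 and 25.8 CPM without it, with a log2 change of 0.07 (interval -0.25 to 0.39). Cdkn2b had 5.50, 7.39 and 6.17 CPM with growth hormone, against 9.25 and 7.83 CPM without it (-0.43, adjusted p = 0.304). Cdk4 (-0.24), Mcm7 (-0.26) and Mcm2 (-0.16) also had unadjusted p-values under 0.05 below 0, while Rrm2 was above 0 (0.42). Cdkn1a differed by -0.19 (interval -0.46 to 0.09) and Pcna by -0.15 (interval -0.32 to 0.02). The median log2 change was 0.35 over the G2/M genes, -0.03 over the S genes, 0.01 over the G1 genes and -0.00 over all genes tested. Of 118 other cell cycle genes 0 passed in edgeR and in DESeq2, with 13 at an unadjusted p under 0.05, against 12.8% of all genes. Of the p53 targets only Fas passed, at 15.5 ± 1.04 CPM with growth hormone (SD, n = 3) and 11.6 ± 0.245 CPM without it (n = 2; 0.42 ± 0.0888, adjusted p = 0.0407), and not without growth hormone replicate 1 or 3 or without either germ-free library.

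Markers of other cells differed with the hormone in summed level: endothelial markers summed to 11.1 to 15.2 CPM with growth hormone, against 15.4 to 16.5 CPM without it, stellate and fibroblast markers to 17.4 to 26.1 CPM, against 31.0 to 34.4 CPM, and Kupffer cell markers to 87.0 to 105 CPM, against 124 to 133 CPM. No marker of these lists passed the threshold, and Cd68 made up most of the Kupffer sum without the hormone (mean 124 CPM). Leukocyte markers summed to 1.18 to 1.78 CPM with growth hormone, against 0.817 to 1.14 CPM without it. Their part in the values of the G2/M genes was not tested.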

How the data were processed

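The deposited table holds whole-number, unscaled exon counts per gene for each library, as its values show. STAR 2.4.0i and the mm10 build are named in the submitters' processing notes. For the counting tool, its annotation and its strand setting, the sources used here give nothing. Libraries were stranded total RNA after ribosomal depletion, per the labels' protocols. The table carries 2 columns with a shared name, which were left out, so that 13 libraries of 15 labelled samples were used.

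Genes were filtered with filterByExpr (minimum count 10), scaled by TMM and fitted in 1 model of the 5 groups without covariates (edgeR 4.0.16 in R 4.3.3, residual degrees of freedom 8), with two-sided quasi-likelihood F tests and Benjamini-Hochberg adjustment over 17405 genes. CPM values use TMM-scaled library sizes. RPKM values use exon lengths of GENCODE M21, which held 36308 of the 38087 gene identifiers. Intervals are at 95%, and the SE is the log2 change over the square root of F. Simulated counts drawn from the fitted spread, without outlying libraries, were also run through the fit, and no result here rests on them. Alternatives were DESeq2 1.42.0, RLE factors, library sizes alone, no filter, the compared groups alone, replicate number as a block and leaving out each library. Leaving out both libraries richest in Xist was added after seeing the data. Members are named by phase, with values in every library for those past the test in any comparison and for Ccnd1, Cdkn1a, Mki67 and Pcna, and other lists by up to 3 calls of largest change. A few further genes (sex check, overlapping neighbours) were named with their values known. The members and lists were chosen with earlier results of these data known.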

Additional observations from a re-analysis of the deposited data

How the results depend on the processing

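For male over female cells, 17 members passed, and 14 to 20 did under all alternatives run. Leaving out single libraries gave 14 to 18. The low-level mitotic genes Ccna2, Ccnb1, Ccnb2, Plk1 and Cdc20, and Cdkn1a, lost their calls in some of these fits. For germ-free over conventional female serum, 3 members passed, with 0 to 4 when single libraries were left out and 0 without both libraries richest in Xist. For male over conventional female serum, 1 passed, with 4 in DESeq2, 2 without the filter, 2 with the replicate number as a block, 0 in a fit of these groups alone, 0 without both libraries richest in Xist and 0 to 3 when single libraries were left out. For growth hormone, 0 passed, with 1 in DESeq2, 3 without the filter, 1 in a fit of these groups alone and 0 in each fit that left out a library. Between germ-free and male serum 0 passed in all fits run. The cause of these shifts was not tested, beyond fewer samples in some fits.

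Signs near 0 turned. Ccnd1, at -0.00 for male over female serum, was at 0.00 with RLE factors (0.00176), DESeq2 (0.00226) and the groups alone (0.00415), 0.04 with the block (0.0433), 0.16 (0.158) without both Xist-rich libraries and -0.17 to 0.16 over single libraries. Over single libraries it was also -0.0202 to 0.29 for germ-free over female serum, -0.0317 to 0.30 for germ-free over male serum and -0.0335 to 0.18 for the hormone. Cdkn1a was -0.0697 to 0.27 for male over female serum, and for germ-free over male serum 0.048 with the block and -0.15 to 0.19 over single libraries.

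The replicate numbers did not pair the libraries: of 23 same-numbered pairs 1 correlated above 0.1 (r from -0.17 to 0.13). With the block Pcna and Cdk4 each gained a call in a comparison where they had not passed, and Ccna2 lost its call for male over female cells. Groups of 2 or 3 libraries, donor stocks of which each sex has its own, and low counts of most G2/M genes limit the precision.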
